A study of Homo sapiens with 8 samples.

Results

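The genes described here are MLXIP, MLXIPL and MLX, which encode glucose-sensing transcription factors, the alpha-arrestin genes TXNIP, ARRDC1, ARRDC2, ARRDC3 and ARRDC4, and KLF10, a target gene of the same factors. They were picked by gene name, and each of the 9 names matched 1 row of the 58735 genes in the deposited table. The RNA-seq libraries, 8 in 4 groups of 2, are all from HCT116, a long-established line grown from a human colorectal carcinoma. Cells with a control short hairpin RNA (shRNA) spent 24 h in DMEM holding either 20 mM or 0 mM glucose and make up 2 of the groups. Cells with shRNA 1 or shRNA 2 against MAPKAPK2 make up the others and had 20 mM glucose (duration not given in the sources used here). MAPKAPK2 encodes MK2, a stress kinase activated by p38 MAP kinases. All 8 libraries come from this 1 line, every group carries an shRNA, and the 2 shRNAs are separate hairpins against 1 gene.

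MLXIP encodes MondoA and MLXIPL encodes ChREBP. When glucose enters a cell it is phosphorylated to glucose-6-phosphate, and MondoA or ChREBP, each paired with its obligate partner MLX, then accumulates in the nucleus and binds carbohydrate response elements, which are pairs of E-box-like sequences a fixed distance apart. MondoA works in many proliferating cells and in muscle, and ChREBP is best known in liver, fat and gut. TXNIP and ARRDC4 are the best known MondoA targets, and their mRNAs fall when glucose is removed. Alpha-arrestins are adaptors that bring NEDD4-type ubiquitin ligases to membrane proteins, and TXNIP and ARRDC4 restrain glucose uptake, so that the pathway limits its own input.

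The sequences just upstream of TXNIP and ARRDC4 are shown because these genes are the classic readouts of the pathway. Here TXNIP had almost no counted reads, while ARRDC4 had reads in every library. Capitals mark CACGNG, an E-box-like unit, on either strand. Both stretches run 5′ to 3′ along the gene's strand, are from RefSeq promoters on GRCh38.p14, and end before the RNA start.

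TXNIP: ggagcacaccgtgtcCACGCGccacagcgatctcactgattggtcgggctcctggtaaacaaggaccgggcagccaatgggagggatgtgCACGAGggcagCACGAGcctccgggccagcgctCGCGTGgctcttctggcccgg

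ARRDC4: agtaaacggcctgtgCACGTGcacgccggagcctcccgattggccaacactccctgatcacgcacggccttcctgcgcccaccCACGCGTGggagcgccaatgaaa

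The TXNIP stretch is chr1:145996614-145996757 on the minus strand, and the ARRDC4 stretch is chr15:97960478-97960583 on the plus strand. A same-direction pair of this unit, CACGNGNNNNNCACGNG, was searched on both strands in windows of 250 bases before to 50 bases after each RefSeq start. It was found at TXNIP, where its first base lies at −88 from the start, and at no other member with a window. It occurs in 20 of 35116 windows of all genes (0.0570%). Pairs with units in opposite directions were not searched for. The symmetrical E-box CACGTG, a special case of CACGNG, was found at ARRDC4 (first base at −210) and MLX (−50), and in 7.26% of all windows. CACGNG alone was found at TXNIP, ARRDC2, ARRDC3, ARRDC4 and MLX and in 30.5% of all windows. A match is a description of the letters, and no match says only that they are not in these windows. KLF10 was not searched.

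Reads recovered from the FPKM, a level scaled to exon length and library size, numbered 14252316 to 19975449 per library. Across the 16239 genes tested, Pearson's r of log2(FPKM + 1) between the libraries of a group was 0.962 to 0.970. Between 20 mM and 0 mM control libraries r was 0.9575 to 0.9697, a range that takes in the values within groups. It was 0.9253 to 0.9406 between libraries of any other different groups. Genes are not independent replicates. Within each group the pair of libraries varied beyond sampling noise (chi-square of 6.08 to 30.6 for each gene on average), most so for shRNA 2. Reads on mitochondrially encoded genes were 11.1% and 9.62% of the shRNA 1 libraries and 6.83% to 9.10% of the others. The epithelial genes EPCAM, KRT8, KRT18, CDH1 and CLDN7 were at 9.62 FPKM or more in every library, and of 5 markers of other cell types PTPRC, PECAM1, ALB and HBB stayed at or under 0.157 FPKM, while the collagen gene COL1A1 was at 3.84 to 6.72. EPCAM was at 70.0 and 68.2 FPKM with shRNA 2 and at 95.4 to 138.6 elsewhere. MAPKAPK2 itself was at 16.2 to 18.9 FPKM in the 4 control libraries, 2.77 and 2.54 with shRNA 1, and 0.982 and 0.800 with shRNA 2. The labels do not name replicates as separate cultures, and p-values here therefore speak only of the scatter among these libraries, possibly technical.

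All 3 factor genes were expressed at like levels per length. MLXIP (ENSG00000175727, chromosome 12, 122078722 to 122147347) was at 14.1 and 13.9 FPKM in the 20 mM controls, 13.9 and 13.8 at 0 mM, 13.6 and 13.2 with shRNA 1, and 10.5 and 11.6 with shRNA 2. The shRNA 2 libraries were the lowest and overlapped no other group. MLXIPL (ENSG00000009950, chromosome 7, 73593194 to 73624543) was at 14.6 and 15.9 FPKM in the 20 mM controls and at 16.0 and 14.3 at 0 mM. It was at 18.7 and 17.0 with shRNA 1, the highest libraries, and 12.4 and 9.99 with shRNA 2, the lowest. MLX (ENSG00000108788, chromosome 17, 42567068 to 42573239) was at 13.4 and 15.5 FPKM in the 20 mM controls, 13.6 and 12.5 at 0 mM, 14.2 and 13.0 with shRNA 1, and 15.9 and 14.3 with shRNA 2, and its highest library was 1.28 times its lowest. Of the exon bases of MLX 18.1% overlap PSMC3IP on the opposite strand, so its level is uncertain where the counting ignored strand. PSMC3IP was at 5.09 to 7.19 FPKM in the control libraries and 3.47 to 3.84 with either shRNA. MLXIPL led the order in 6 of the libraries and MLX in both with shRNA 2, but not every step in the order exceeded the spread of the libraries. In the 20 mM controls MLX overlapped both other genes, with shRNA 1 MLX and MLXIP overlapped below MLXIPL, and with shRNA 2 MLXIP and MLXIPL overlapped below MLX. At 0 mM the order was MLXIPL, MLXIP and MLX with no overlap.

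**Figure D1:**
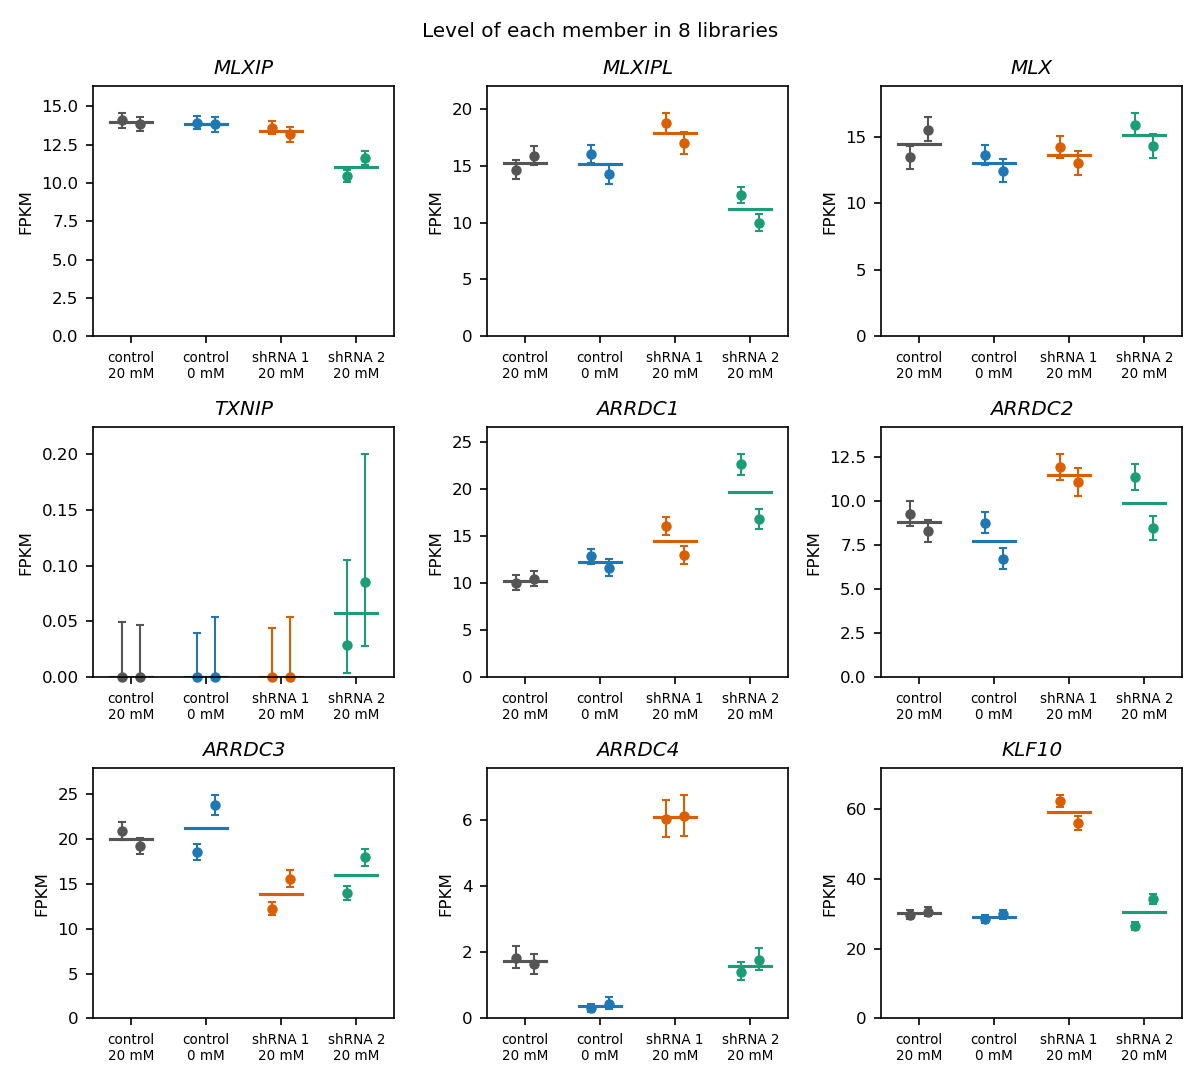
FPKM of each of the 9 genes (a panel each, axes from 0) by group. Points are single libraries, vertical bars are exact 95% Poisson intervals of their reads, or the limit that 0 reads allow, and horizontal lines are means of 2 libraries. ARRDC4 is lowest in the 0 mM controls and highest with shRNA 1, KLF10 is high with shRNA 1 alone, and TXNIP is at or near 0 throughout.

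TXNIP, which binds thioredoxin and promotes removal of the glucose transporter GLUT1 from the membrane, had almost no counted reads. The gene (ENSG00000265972, chromosome 1, 145992435 to 145996600) had 0 reads in the 4 control libraries and in both shRNA 1 libraries, which allows at most 0.0400 to 0.0541 FPKM in each of these. With shRNA 2 it had 2 and 5 reads, or 0.0291 and 0.0857 FPKM, with exact 95% Poisson intervals of 0.00353 to 0.105 and 0.0278 to 0.200. These limits cover counting error only and refer to counted reads: whether the RNA was missing from the cells or its reads went uncounted was not tested. TXNIP did not reach the level needed for the main test, and no fold is given. Without that filter it did not pass with shRNA 2 (limma adjusted p = 0.291). None of its exon bases overlaps another annotated gene. POLR3GL, the next protein-coding gene on one side, was at 3.25 to 9.01 FPKM, and HJV, on the other side, at 0.0742 or less. Having 0 reads in all 4 controls was shared by 17.3% of the 19951 protein-coding genes.

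ARRDC4, an alpha-arrestin closely related to TXNIP, varied most among the 8 members with reads in every library, with a highest value 20.6 times the lowest. The gene (ENSG00000140450, chromosome 15, 97960698 to 97973838) was at 1.82 and 1.63 FPKM in the 20 mM controls, from 124 and 118 reads, and at 0.297 and 0.446 at 0 mM, from 25 and 28 reads. With shRNA 1 it was at 6.03 and 6.10 FPKM, from 462 and 380 reads, and with shRNA 2 at 1.40 and 1.77, from 108 and 116 reads. Every shRNA 1 library stood above and every 0 mM library below all others, while shRNA 2 overlapped the 20 mM controls. Exact 95% Poisson intervals cover counting error only, and libraries of a group varied beyond it. Their upper bounds at 0 mM were 0.438 and 0.644 FPKM, the lowest bound at 20 mM was 1.35 in the controls and 1.15 with shRNA 2, and the lower bounds with shRNA 1 were 5.49 and 5.50.

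The other alpha-arrestin genes were more abundant and moved less. ARRDC3 (ENSG00000113369, chromosome 5, 91368724 to 91383359), whose product promotes ubiquitination of the beta-2 adrenergic receptor and of integrin beta-4, was at 20.9 and 19.2 FPKM in the 20 mM controls, 18.6 and 23.8 at 0 mM, 12.2 and 15.6 with shRNA 1, and 14.01 and 17.95 with shRNA 2. All shRNA libraries lay below all control libraries. ARRDC1 (ENSG00000197070, chromosome 9, 137605654 to 137615360), which drives budding of vesicles from the plasma membrane, was at 10.0 and 10.5 FPKM in the 20 mM controls, 12.9 and 11.6 at 0 mM, 16.1 and 13.0 with shRNA 1, and 22.6 and 16.8 with shRNA 2. Both shRNA 2 libraries were above all others. ARRDC2 (ENSG00000105643, chromosome 19, 18001132 to 18014102) was at 9.26 and 8.29 FPKM in the 20 mM controls, 8.76 and 6.71 at 0 mM, 11.9 and 11.0 with shRNA 1, and 11.3 and 8.44 with shRNA 2, with the shRNA 1 libraries above all controls and overlapped by shRNA 2. Overlaps with other genes' exons cover 9.53% of the exon bases of ARRDC2, 5.55% for ARRDC1 and 2.94% for ARRDC3, and the overlapping genes were at 4.25 FPKM or less.

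Summed over the 5 alpha-arrestin genes, transcripts came to 39.6 to 42.6 FPKM in the control libraries and 45.1 to 49.4 FPKM with either shRNA. ARRDC3 gave 45.8% to 55.9% of the sum in the controls and 26.5% to 39.8% with the shRNAs. ARRDC4 gave 4.33% and 4.11% at 20 mM, 0.733% and 1.05% at 0 mM, 13.0% and 13.4% with shRNA 1, and 2.84% and 3.93% with shRNA 2. In the controls the order was ARRDC3, ARRDC1, ARRDC2, ARRDC4 and TXNIP in all 4 libraries. ARRDC1 passed ARRDC3 in the first library of each MAPKAPK2 shRNA, so their order there changed between libraries of a group.

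KLF10, a zinc finger repressor first known as a TGF-beta-induced gene and also a ChREBP target, was the most abundant of the 9. The gene (ENSG00000155090, chromosome 8, 102648779 to 102655902) was at 29.6 and 30.6 FPKM in the 20 mM controls, 28.5 and 29.8 at 0 mM, 62.3 and 56.0 with shRNA 1, and 26.5 and 34.3 with shRNA 2. Only the shRNA 1 libraries stood apart from all others.

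The first comparison asked which of these genes respond to 24 h without glucose. ARRDC4 was the 1 member with a large difference: its level at 0 mM was 0.371 FPKM ± 0.105 against 1.72 ± 0.136 at 20 mM (SD, n = 2 each), 21.5% of the control. The genes of the factors themselves showed little difference, with 99.3% of the 20 mM level for MLXIP and MLXIPL and 89.95% for MLX, and KLF10 was at 96.8%. ARRDC1 was at 119.5%, ARRDC3 at 106% and ARRDC2 at 88.2%.

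In a limma model of log2(FPKM + 1), on which folds of low genes are understated, ARRDC4 had a log2 fold change of −0.99 (SE 0.14, 95% interval −1.32 to −0.66, limma adjusted p = 0.202). It did not pass, nor did any of the 16239 genes tested (0%), with 1421 of them at an unadjusted p under 0.05. When reads were fitted in place of FPKM, with limma voom, the change was −2.26 (SE 0.36, limma adjusted p = 0.0231), and ARRDC4 fell there as 1 of 28 genes called (0.172%). That call was lost when any 1 control or shRNA 1 library was left out (log2 fold change −2.51 to −1.93, limma voom adjusted p from 0.0747 to 0.438) and kept when either shRNA 2 library was (0.00101 and 0.000923), and these fits were added after the values were seen. The other 7 tested members had log2 fold changes of −0.17 to 0.23 on log2(FPKM + 1), with limma adjusted p of 0.743 to 0.994. Their 95% intervals reached from −0.21 to 0.19 for MLXIP, −0.31 to 0.29 for MLXIPL, −0.40 to 0.12 for MLX, −0.35 to 0.26 for KLF10, −0.35 to 0.49 for ARRDC3, −0.56 to 0.22 for ARRDC2 and −0.14 to 0.61 for ARRDC1. Groups did not overlap for 2 of 8 tested members, ARRDC4 (lower) and ARRDC1 (higher), against 41.3% of all genes.

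**Figure D2:**
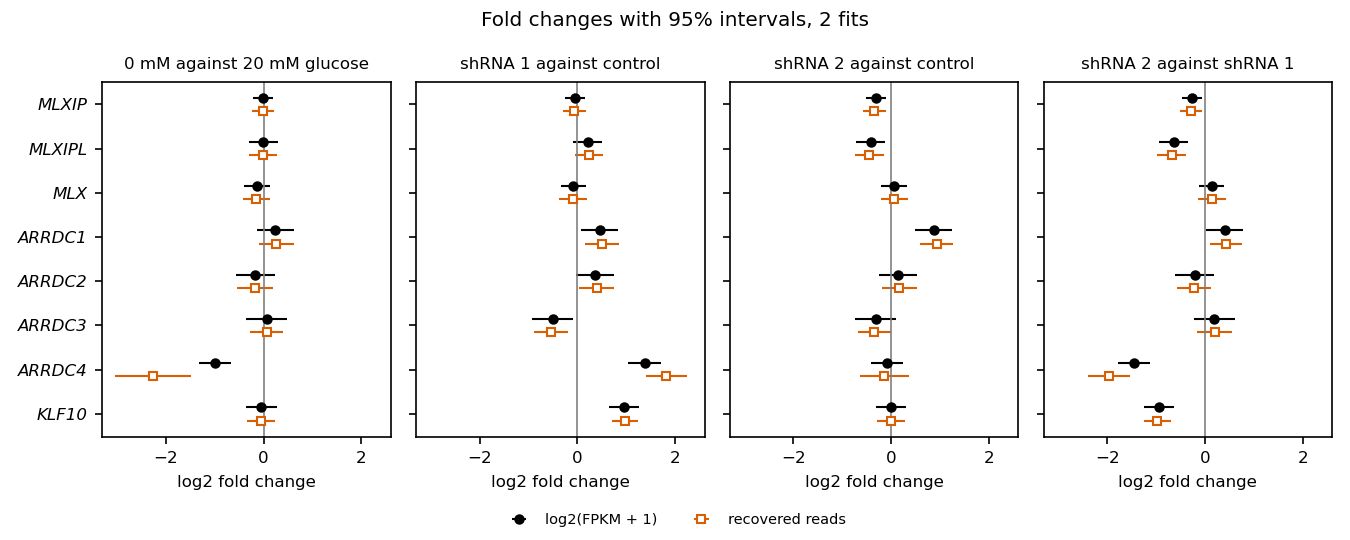
Log2 fold changes of the 8 tested genes in 4 comparisons, with 95% intervals, from limma on log2(FPKM + 1) (filled circles) and from limma voom on recovered reads (open squares). ARRDC4 lies at −0.99 and −2.26 for glucose withdrawal, and at 1.38 and 1.81 with shRNA 1. The first 3 comparisons share the 20 mM control libraries.

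The second comparison set each MAPKAPK2 shRNA against control shRNA at 20 mM glucose. With shRNA 1, ARRDC4 rose to 6.06 FPKM ± 0.0543 from 1.72 ± 0.136, or 3.52-fold, and KLF10 to 59.2 ± 4.45 from 30.1 ± 0.651, or 1.97-fold (SD, n = 2 each). With shRNA 2 neither passed, with ARRDC4 at 1.58 ± 0.261 and KLF10 at 30.4 ± 5.47. With shRNA 2 ARRDC1 rose, to 19.7 FPKM ± 4.11 from 10.2 ± 0.310, or 1.92-fold, and MLXIP fell, to 11.1 ± 0.809 from 13.98 ± 0.158, or 79.1% of the control. None of the 8 passed in the main test on log2(FPKM + 1) with both hairpins, whose comparisons share the control libraries. ARRDC1 did in the read-based fit, with protein-coding genes alone and with the replicate block. How many of all genes passed with both hairpins was not counted, so this says nothing particular about the members. For ARRDC1 and MLXIP the test between hairpins did not pass on log2(FPKM + 1).

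With shRNA 1, limma on log2(FPKM + 1) gave a log2 fold change of 1.38 for ARRDC4 (SE 0.14, adjusted p = 0.00183) and 0.95 for KLF10 (SE 0.13, adjusted p = 0.00459). Both passed in all 7 other settings and without any 1 library. These 2 of 8 members compare with 19.8% of all genes tested, a similar share, so the count itself says nothing particular about these genes. ARRDC3 (−0.51, SE 0.18, limma adjusted p = 0.0910) and ARRDC1 (0.46, SE 0.16, limma adjusted p = 0.0898) did not pass and did in the read-based fit, at −0.54 (limma voom adjusted p = 0.0240) and 0.50 (0.0366), where 25.5% of all genes passed. ARRDC2 (0.35, limma adjusted p = 0.185), MLXIPL (0.21, 0.281), MLXIP (−0.06, 0.688) and MLX (−0.08, 0.643) did not pass in either fit. Groups did not overlap for 7 of 8 members, all but MLX, against 65.7% of all genes. The mitochondrial share of reads was also highest in the shRNA 1 libraries, and its part in these values was not tested.

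With shRNA 2, limma gave a log2 fold change of 0.87 for ARRDC1 (SE 0.16, adjusted p = 0.0117) and −0.32 for MLXIP (SE 0.09, adjusted p = 0.0451), 2 of 8 members against 18.8% of all genes. The ARRDC1 call was lost without the first (limma adjusted p = 0.0798) or second control at 20 mM (0.0661), and in a fit to these 2 groups alone (0.0614). The MLXIP call was lost without any 1 library other than the second with shRNA 2 (limma adjusted p = 0.0784 to 0.200). MLXIPL was at 11.2 FPKM ± 1.72 against 15.3 ± 0.869 (SD, n = 2 each), a log2 fold change of −0.42 (SE 0.13, limma adjusted p = 0.0606) that passed in the read-based fit (−0.45, limma voom adjusted p = 0.0281; 24.2% of all genes), after quantile normalization (limma adjusted p = 0.0307) and with protein-coding genes alone (0.0277). ARRDC3 (−0.32, limma adjusted p = 0.267), ARRDC2 (0.14, 0.601), ARRDC4 (−0.08, 95% interval −0.41 to 0.25), MLX (0.06, −0.20 to 0.32) and KLF10 (0.003, −0.31 to 0.31) did not pass. Groups did not overlap for 4 of 8 members, against 57.4% of all genes.

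Set against each other at 20 mM glucose, the 2 hairpins differed for ARRDC4, KLF10 and MLXIPL, all lower with shRNA 2. The log2 fold change of shRNA 2 against shRNA 1 was −1.45 for ARRDC4 (SE 0.14, limma adjusted p = 0.00108), −0.95 for KLF10 (SE 0.13, limma adjusted p = 0.00390) and −0.63 for MLXIPL (SE 0.13, limma adjusted p = 0.0139). These are 3 of 8 members, against 22.2% of all genes tested, of which 13.0% were higher and 9.13% lower. The MLXIPL call was lost without the first (limma adjusted p = 0.0919) or second shRNA 1 library (0.0571), and a fit to these 2 groups alone lost both MLXIPL (0.0745) and KLF10 (0.0501). For ARRDC1 (0.41, 95% interval 0.03 to 0.79, limma adjusted p = 0.112) the difference between hairpins did not pass, and in the read-based fit it was at the threshold (0.43, limma voom adjusted p = 0.04997; 28.4% of all genes). MLXIP (−0.26, limma adjusted p = 0.0727) did not pass, but did after quantile normalization (−0.37, 0.0229). ARRDC2 (−0.21, 0.411), ARRDC3 (0.19, 95% interval −0.23 to 0.61) and MLX (0.14, −0.12 to 0.40) did not pass. Groups did not overlap for 6 of 8 members, against 60.0% of all genes. MAPKAPK2 was lower with shRNA 2, and whether the difference in its level bears on these genes was not tested.

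The other genes of the pathway were taken from 7 lists. At 0 mM none of their tested members passed on log2(FPKM + 1), and in the read-based fit 1 did. Directions with the shRNAs are read against 9.35% of all genes up and 10.5% down with shRNA 1, and 11.1% up and 7.73% down with shRNA 2. Quantile normalization gave 1678 of the 16239 genes up and 1721 down with shRNA 1, and 1546 up and 1523 down with shRNA 2. Of 22 other MondoA and ChREBP target genes 15 were tested, and PKLR, G6PC, FGF21, THRSP and MTTP, which serve liver or gut, were at 0.202 FPKM or less. With shRNA 1, 6 fell and 0 rose (median log2 fold change −0.30, all genes −0.01), among them the stearoyl-CoA desaturase gene SCD, from 163 to 59.2 FPKM, and the circadian repressor BHLHE40, from 23.2 to 8.80. With shRNA 2, 3 rose and 2 fell (median 0.10, all genes 0.01), and SCD rose to 289. After quantile normalization the counts were 0 and 5 with shRNA 1, where FASN was lost (limma adjusted p = 0.137), and 2 and 2 with shRNA 2 (median 0.01), where ELOVL6 was lost (0.0502). MID1IP1, which activates acetyl-CoA carboxylase, and PFKFB3, which raises the glycolytic activator fructose 2,6-bisphosphate, fell with both shRNAs, MID1IP1 from 39.7 to 27.3 and 20.0 FPKM and PFKFB3 from 14.2 to 9.20 and 8.67. HK2, one of the hexokinases that make glucose-6-phosphate, rose with shRNA 2, to 21.8 from 8.03 FPKM, and with 13.5 at 0 mM it was the list's 1 gene past the read-based test there. In the list of glucose-phosphorylating enzymes 2 of 6 were tested, and HK1 rose with shRNA 2, from 8.72 to 13.4.

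**Figure D3:**
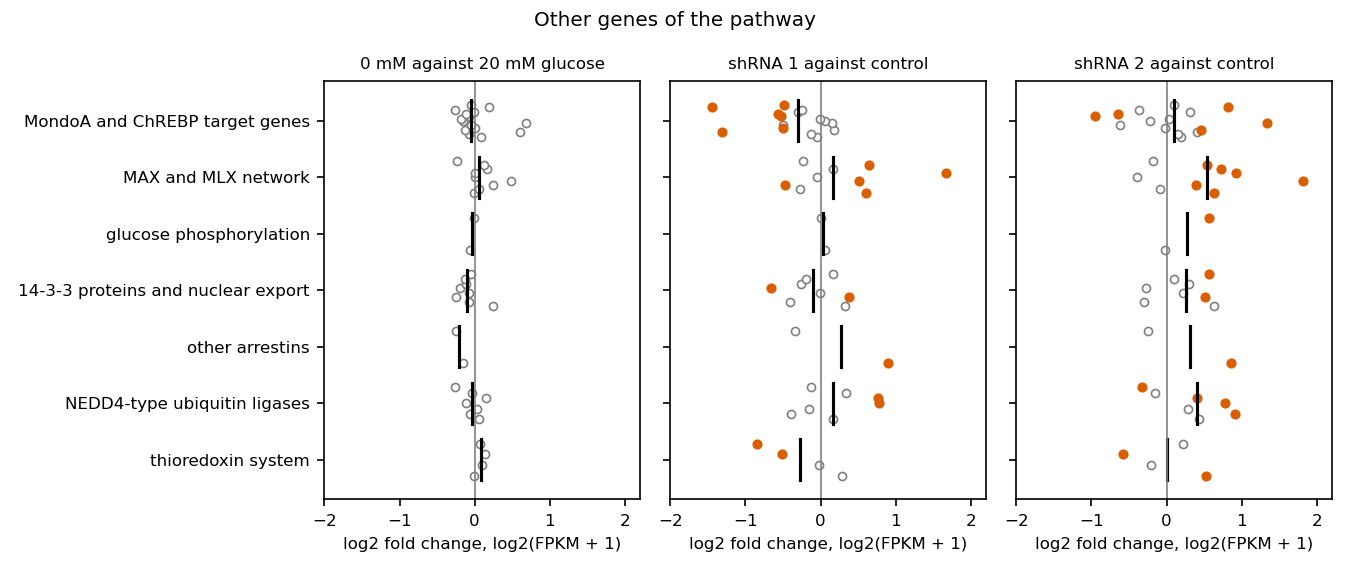
Log2 fold changes, on log2(FPKM + 1), of the tested genes of 7 pathway lists for glucose withdrawal and for each shRNA. Each point is a gene, filled where limma's adjusted p was under 0.05, and black lines are list medians. No point is filled for glucose, and the MAX and MLX network holds 4 risers and 1 faller with shRNA 1 and 6 risers with shRNA 2.

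MLX belongs to a wider network in which MAX pairs with MYC or with repressors of the MXD family. Of 9 tested genes of this network 4 rose and 1 fell with shRNA 1 (median 0.17), and 6 rose and 0 fell with shRNA 2 (median 0.54), or 5 and 0 after quantile normalization, which lost MNT (limma adjusted p = 0.0898). MAX went from 6.25 FPKM to 9.99 with shRNA 1 and 10.2 with shRNA 2, MYC from 112 to 175 and 163.5, and MXD4 from 3.73 to 14.1 and 8.05, and all 3 passed with both shRNAs. MXD1, another repressor, passed as well, going from 1.16 to 2.07 and 6.60. MNT, a repressor that binds MAX and also MLX, fell from 4.91 to 3.27 with shRNA 1 and rose to 6.73 with shRNA 2.

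Of the NEDD4-type ligases, which alpha-arrestins recruit, 7 of 9 were tested. With shRNA 1, 2 rose and 0 fell (median 0.17), and with shRNA 2, 3 rose and 1 fell (median 0.41), or 2 and 1 after quantile normalization, which lost SMURF2 (limma adjusted p = 0.125). SMURF1 rose with both, from 5.13 FPKM to 9.48 and 9.54, as did SMURF2, from 28.8 to 49.6 and 38.7, and NEDD4 rose with shRNA 2, from 2.49 to 5.61. The beta-arrestin gene ARRB1 rose with both, from 2.61 to 5.69 and 5.54, as 1 of 2 tested genes in the list of other arrestins, where ARRDC5, the remaining alpha-arrestin, was at 0.198 FPKM or less.

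In the thioredoxin system, whose TXN is bound by TXNIP, all 4 genes were tested. With shRNA 1, 0 rose and 2 fell (median −0.27), and after quantile normalization 1 rose and 1 fell, with TXNRD1 lost (limma adjusted p = 0.0687). TXNRD1, a thioredoxin reductase gene, fell with both shRNAs, from 75.4 FPKM to 52.5 and 50.3, and TXNRD2 fell with shRNA 1, from 3.16 to 1.30. TXN rose with shRNA 2, from 169 to 242, where 1 rose and 1 fell (median 0.01). The last list holds the adaptor proteins of the 14-3-3 family, which hold MondoA and ChREBP in the cytoplasm, and the exporter XPO1. All 8 were tested, 1 rose and 1 fell with shRNA 1 (median −0.10), and 2 rose and 0 fell with shRNA 2 (median 0.25), and after quantile normalization the counts were 2 and 1 (median 0.10) and 1 and 0 (median 0.18). YWHAB rose with both, from 32.9 FPKM to 43.2 and 47.2 (after quantile normalization with shRNA 1 alone, limma adjusted p = 0.0539 with shRNA 2), and YWHAG fell with shRNA 1, from 116 to 72.8.

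Patterns like those of 4 members were sought among 7119 protein-coding genes with a mean of at least 5 FPKM, by Pearson's r of log2(FPKM + 1) over the 8 libraries. With 4 groups of 2, such values largely restate the group means and are given as a description. TEX261 (r = 0.985), CSTF3 (0.979) and the methionine adenosyltransferase gene MAT2A (0.971) were most like ARRDC4, with MAT2A at 74.0 and 70.6 FPKM in the 20 mM controls, 62.4 and 64.5 at 0 mM, 115 and 116 with shRNA 1, and 69.7 and 77.8 with shRNA 2. Its range is far narrower than that of ARRDC4. IPO13 (0.987), IFRD1 (0.986) and PIAS3 (0.985) were most like KLF10. PAXBP1 (0.981), PANX1 (0.979) and WRN (0.973) were most like ARRDC3, and SYBU (0.985), NF2 (0.983) and DCP1A (0.982) most like MLXIP. Many more genes had a high r with each of these 4 members, so the named genes do not stand out. Among all pairs of members, r over the same 8 libraries was furthest from 0 for the following. It was 0.893 between ARRDC4 and KLF10, −0.92 between ARRDC2 and ARRDC3, and −0.886 between MLXIP and ARRDC1. Other pairs lay near 0, such as ARRDC4 and MLXIP (−0.0171).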

How the data were processed

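The authors deposited 1 table of FPKM for 58735 genes in 8 libraries. The submitters' processing notes list HISAT2 2.0.5, featureCounts 1.5.0-p3 and also DESeq2 1.20.0, with no step assigned to any. Whether counting used strand: not given in the sources used here. Deposited gene lengths and positions equal GENCODE 29 on GRCh38 for all 58735 genes, so coordinates are in that build. FPKM times length was a whole multiple of 1 step per library for 100% of values (within 0.001 of a step, or in proportion for large values), which gave back reads; they were 0.932 to 1.05 times the library size the authors divided by.

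Genes with at least 1 FPKM in at least 2 libraries (16239) were tested with limma 3.58.1 in R 4.3.3 on log2(FPKM + 1), with an intensity trend, 4 group means and 4 residual degrees of freedom. Calls needed a Benjamini-Hochberg adjusted p under 0.05 over all genes tested. Alternatives were limma voom on the recovered reads (called the read-based fit), a pseudocount of 0.1, no filter, quantile normalization, the 2 groups compared alone, a replicate block, protein-coding genes alone, and leaving out each library. Fits were also run on simulated reads drawn with the same scatter in every group, unlike these libraries, and no result here rests on them. Members and lists were chosen with earlier results of these data known. All members are named, as are up to 3 called genes per list and comparison, smallest adjusted p first (not all of these are printed), and the 3 genes most like 4 members. Poisson intervals are exact, at 95%, and 0 reads stand for at most 3.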

Additional observations from a re-analysis of the deposited data

Results flagged for a closer look

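Effects of the 2 hairpins against the same gene differed for 3 members, by the limma test of shRNA 2 against shRNA 1 itself. The log2 fold change was −1.45 for ARRDC4 and −0.95 for KLF10, each higher in both shRNA 1 libraries than in both shRNA 2 libraries, and −0.63 for MLXIPL, likewise. Both hairpins lowered MAPKAPK2, to 16.3% and 5.46% of the 20 mM controls. A difference between hairpins in the level of MAPKAPK2 and one in other targets cannot be told apart here. Groups of 2 libraries are too small to look for a single library that stands apart.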

How the results depend on the processing

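With 2 libraries a group, calls rested on few degrees of freedom, and depth limits TXNIP and ARRDC4 most. The number of members called at 0 mM, 0 on log2(FPKM + 1), was 1 (ARRDC4) in the read-based fit and with protein-coding genes alone and 0 without any 1 library. With shRNA 1 it was 4 in place of 2 in the read-based fit, with protein-coding genes alone and with the replicate block, and 2 to 3 without 1 library. With shRNA 2 it was 1 without the filter and 0 with the 2 groups compared alone in place of 2, but 3 (MLXIPL added) after quantile normalization, with protein-coding genes alone, with the replicate block and in the read-based fit, and 0 to 2 without 1 library. Between hairpins it was 1 in place of 3 with the 2 groups alone, 4 after quantile normalization and in the read-based fit, and 2 to 5 without 1 library. Over all genes, 0 were called at 0 mM and 6 without the filter, 8 with protein-coding genes alone, 28 in the read-based fit and 1 without the second shRNA 2 library. Leaving out any library of the groups compared made the number of genes called with shRNA 1, 3222, much smaller. For shRNA 2 against control (3055) the fall was large without either 20 mM control. Between hairpins (3602) it was large without either shRNA 1 library. Without either shRNA 2 library both of these numbers fell far less. With the 2 groups alone, 961 genes were called with shRNA 2 and 1136 between hairpins. Protein-coding genes alone gave 3956 of 11446 genes with shRNA 1, 3799 with shRNA 2 and 4317 between hairpins. Of 16239 genes, the replicate block gave 3470, 3332 and 3806 in that order. The read-based fit gave 4133, 3937 and 4604, and quantile normalization 3399, 3069 and 3617. Higher numbers of members called in these settings are to be read against these numbers. Small log2 fold changes, none past the threshold, turned sign. Quantile normalization gave 0.0076 for MLXIPL and 0.011 for KLF10 at 0 mM, and −0.024 for MLX and −0.061 for KLF10 with shRNA 2, where the read-based fit gave −0.00061 for KLF10. Without 1 library, ranges at 0 mM were −0.020 to 0.0013 for MLXIP, −0.089 to 0.068 for MLXIPL and −0.11 to 0.24 for ARRDC3. With shRNA 1 the range was −0.18 to 0.015 for MLX, and with shRNA 2 it was −0.040 to 0.16 for MLX, −0.048 to 0.34 for ARRDC2, −0.18 to 0.025 for ARRDC4 and −0.18 to 0.18 for KLF10. In the read-based fit without the first shRNA 2 library, ARRDC4 was at 0.042. Why these values moved was not tested. Deviations of same-numbered libraries correlated at −0.0295 to 0.179 across genes, which cannot show whether or not replicate numbers pair the samples. The replicate block therefore stands as a setting only, and it gave 0, 4, 3 and 3 members called in the order above.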
